A study of Mus musculus with 11 samples.

Results

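Whole testes of Dnmt3C KO and Nrf1 cKO mice at postnatal day 5 were compared, 3 poly-A RNA-seq libraries of each genotype out of the 11 libraries of the series, whose other genotypes are wild type (WT, 2 libraries) and the double mutant (dKO, 3 libraries). The 6 libraries were taken by the genotype in their labels, and the features are the 31162 genes and 1066 transposable element (TE) subfamilies counted in them. Dnmt3C KO mice carry 2 null alleles of Dnmt3C, a DNA methyltransferase gene of rodents that acts in male germ cells. By their label they have no germ cell deletion of Nrf1. The labels and the text of the study do not say whether any carry a floxed or null Nrf1 allele. Nrf1 cKO mice, labelled Nrf1KO/KO, carry a floxed and a null allele of Nrf1 with Ddx4-Cre (Vasa-Cre), which recombines in germ cells. The somatic cells of their testes therefore still carry the floxed allele beside the null allele. Their label names no Dnmt3C mutation, and the study made the Nrf1 deletion in wild-type and Dnmt3C KO backgrounds. Whether any Nrf1 cKO mice carry a single Dnmt3C null allele is not stated. The breeding gives the dKO mice the alleles of both mutants. All lines were bred onto a C57Bl6/J background. The labels name germ cells together with somatic cells, while the extraction started from whole testis, and the labels do not say whether each library came from a different animal, so that p-values here measure the spread between these libraries.

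DNMT3C methylates the promoters of young retrotransposons in fetal male germ cells, which then stay silenced through the life of the germline. NRF1 is a transcription factor that binds a GC-rich palindrome in promoters, only where its CpG sites are unmethylated, and is best known for driving genes of mitochondrial respiration. The comparison sets a testis in which TE promoters may have lost methylation but NRF1 is present against another genotype. In the latter the germ cells lack NRF1 and Dnmt3C is not knocked out by the label. IAP and MMERVK10C elements are endogenous retroviruses of the ERVK family, with an internal part (names ending in -int) between long terminal repeats (LTRs) that hold the promoter, and LINE1 elements are retrotransposons without LTRs.

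The counts summed to between 31288296 and 39365529 per Dnmt3C KO library and between 26063367 and 37442906 per Nrf1 cKO library, and replicates differed by more than sampling noise, with a chi-square per degree of freedom of 19.5 to 62.9 between pairs. Levels below are CPM, counts relative to the library size after TMM scaling over the 11 libraries, listed in the order of replicates 1, 2 and 3. Intervals of counting error are not given, since the spread between libraries exceeded it. The targeted genes do not check the labels. Dnmt3c (chr2:153696652-153729907, GRCm38) stood at 3.0, 3.88 and 4.53 CPM in Dnmt3C KO, 3.88, 4.83 and 4.02 in Nrf1 cKO, with 4.16 and 4.88 in WT. Nrf1 (chr6:30047988-30153458) stood at 44.7, 56.2 and 50.5 CPM in Dnmt3C KO, 56.5, 51.8 and 57.8 in Nrf1 cKO, with 57.1 and 58.1 in WT. The groups overlapped for both genes, and the counts cover whole genes in all cells of the testis. Ehmt1 and Ehmt2, which encode the subunits of the G9a and GLP histone H3K9 methyltransferase, had log2 fold changes of -0.16 ± 0.11 and 0.04 ± 0.11 (SE).

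Of 19814 genes and 828 TE subfamilies that passed the filter on low counts, 0 passed an adjusted p of 0.01 with edgeR's quasi-likelihood test (0% of 20642 features), the threshold used throughout. The smallest adjusted p was 0.0224. At an unadjusted p under 0.05, which is what is meant by unadjusted p below, 1242 genes (6.27%) were higher in Dnmt3C KO and 891 (4.5%) lower, while 53 TE subfamilies (6.4%) were higher and 1 (0.121%) lower. With a library left out, the count of higher TE subfamilies at that level ran from 28 (without Dnmt3C KO replicate 1) to 93 (without Nrf1 cKO replicate 3), and that of lower ones from 0 to 10 (10 against 38 higher without Nrf1 cKO replicate 1). The TPM of copies summed per subfamily, tested with limma, gave 37 higher and 40 lower. That TPM is scaled to the TE total of each library, which centres the subfamilies, so it does not test a lean of all subfamilies to one side. An adjusted p of 0.05 gave 9 genes (0.0454%) and 4 TE subfamilies (0.483%), all higher in Dnmt3C KO. The DESeq2 Wald test on the same features called more at 0.01: 179 genes higher (0.903%), 18 lower (0.0908%), 15 TE subfamilies higher (1.81%) and 0 TE subfamilies lower (0%; 2 at an unadjusted p under 0.05). All 15 TE subfamilies belong to the ERVK family. Because no feature passed the main threshold, levels are described here as higher or lower in the libraries, and edgeR's values are given with each.

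MMERVK10C-int, the internal part of an ERVK provirus, stood furthest apart among TE subfamilies by edgeR's p. It had 399, 191 and 241 CPM in Dnmt3C KO and 34, 53.2 and 51.4 in Nrf1 cKO, beside 84.2 and 81.9 in WT and 305, 213 and 162 in dKO. The lowest Dnmt3C KO library lay far above the highest Nrf1 cKO library, the WT libraries lay between the mutants, and the dKO libraries lay in the range of Dnmt3C KO or just below it. The difference was 2.58 ± 0.29 on the log2 scale (SE), with an adjusted p of 0.0224 by edgeR and 8.00e-18 by DESeq2. Leaving out any of the 6 libraries gave 2.23 to 2.79. RLTR10C, the LTR that goes with this provirus, followed with 47.2, 26.7 and 28 CPM against 6.29, 11.1 and 11.5 (log2 fold change 1.82 ± 0.29 (SE), unadjusted p = 0.000131, adjusted p = 0.0662 with edgeR). RLTR10B2 and RLTR10B, related LTRs at lower levels, had log2 fold changes of 1.85 ± 0.33 and 1.56 ± 0.34 (SE), and their libraries did not overlap either. Of the 11 MMERVK10C and RLTR10 subfamilies tested, 6 stood higher by unadjusted p and 0 lower (6.4% and 0.121% of all TE subfamilies). DESeq2 called 4 higher (1.81% of all TE subfamilies). All 11 had log2 fold changes above 0, as did 78.6% of all TE subfamilies, with a median of 0.85 against 0.20 for all TE subfamilies.

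IAP elements differed by subfamily. IAP1-MM_I-int, an internal IAP sequence, had 58.7, 30.6 and 44.6 CPM in Dnmt3C KO and 5.96, 11.9 and 7.22 in Nrf1 cKO (log2 fold change 2.41 ± 0.30 (SE), unadjusted p = 2.24e-05, adjusted p = 0.039 with edgeR), with 21.5 and 24.5 in WT. Its Nrf1 cKO libraries lay below both WT libraries and its Dnmt3C KO libraries above them. IAPEz-int, the most abundant internal IAP sequence here, had 1014, 601 and 592 CPM against 245, 331 and 310.5 (log2 fold change 1.32 ± 0.23 (SE), unadjusted p = 0.000263, adjusted p = 0.0776 with edgeR), with 374 and 274 in WT. In this case the Nrf1 cKO libraries overlapped those of WT. IAPA_MM-int had 22.4, 11.5 and 9.44 CPM against 2.41, 3.62 and 2.28 (log2 fold change 2.38 ± 0.36 (SE), unadjusted p = 9.17e-05, adjusted p = 0.0528 with edgeR), and IAPEy-int, at low counts, 12.8, 4.60 and 7.72 against 0.428, 1.35 and 1.62 (log2 fold change 2.89 ± 0.52 (SE), unadjusted p = 0.000343, adjusted p = 0.0884 with edgeR). WT had 3.81 and 2.50 CPM of IAPA_MM-int and 5.38 and 3.10 of IAPEy-int. For IAPEy-int, Dnmt3C KO replicate 2 lay within the WT range and the Nrf1 cKO libraries lay below it. All 4 internal sequences were called higher by DESeq2, and in all 4 the Dnmt3C KO and Nrf1 cKO libraries did not overlap. Separation of that kind held for 9.66% of all TE subfamilies with Dnmt3C KO above and 0.966% with it below, and for 9.89% and 8.26% of genes.

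Among the LTRs of IAP, the promoter-bearing parts, IAPLTR2_Mm had 89.9, 54.7 and 60.2 CPM in Dnmt3C KO against 13.8, 22.4 and 14.3 in Nrf1 cKO (log2 fold change 2.02 ± 0.24 (SE), unadjusted p = 1.57e-05, adjusted p = 0.0324 with edgeR). IAPLTR2a had 18.5, 11 and 13.1 against 1.99, 3.75 and 2.51 (log2 fold change 2.36 ± 0.30 (SE), unadjusted p = 2.37e-05, adjusted p = 0.039 with edgeR), and IAPLTR1_Mm 112, 68.1 and 67.1 against 22.3, 32.8 and 26.9 (log2 fold change 1.59 ± 0.22 (SE), unadjusted p = 5.48e-05, adjusted p = 0.0528 with edgeR). The groups did not overlap for any of these 3 LTRs, and Dnmt3C KO replicate 1 was the highest library in each. Other IAP LTRs stood closer together. Over the 16 subfamilies whose names begin with IAPLTR, or with IAPEY and name an LTR, 5 stood higher by unadjusted p and 0 lower (6.4% and 0.121% of all TE subfamilies), and the median log2 fold change was 0.57. That median was 0.35 without Nrf1 cKO replicate 1 and 0.25 with summed TPM. For the 8 internal IAP subfamilies tested, of 9 in the table, the count was 5 higher and 0 lower, and the median 1.06; IAPLTR3-int is in both groups by its name. IAP1-MM_LTR, which neither group of names covers, had a log2 fold change of 2.02 ± 0.30 (SE).

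**Figure D1:**
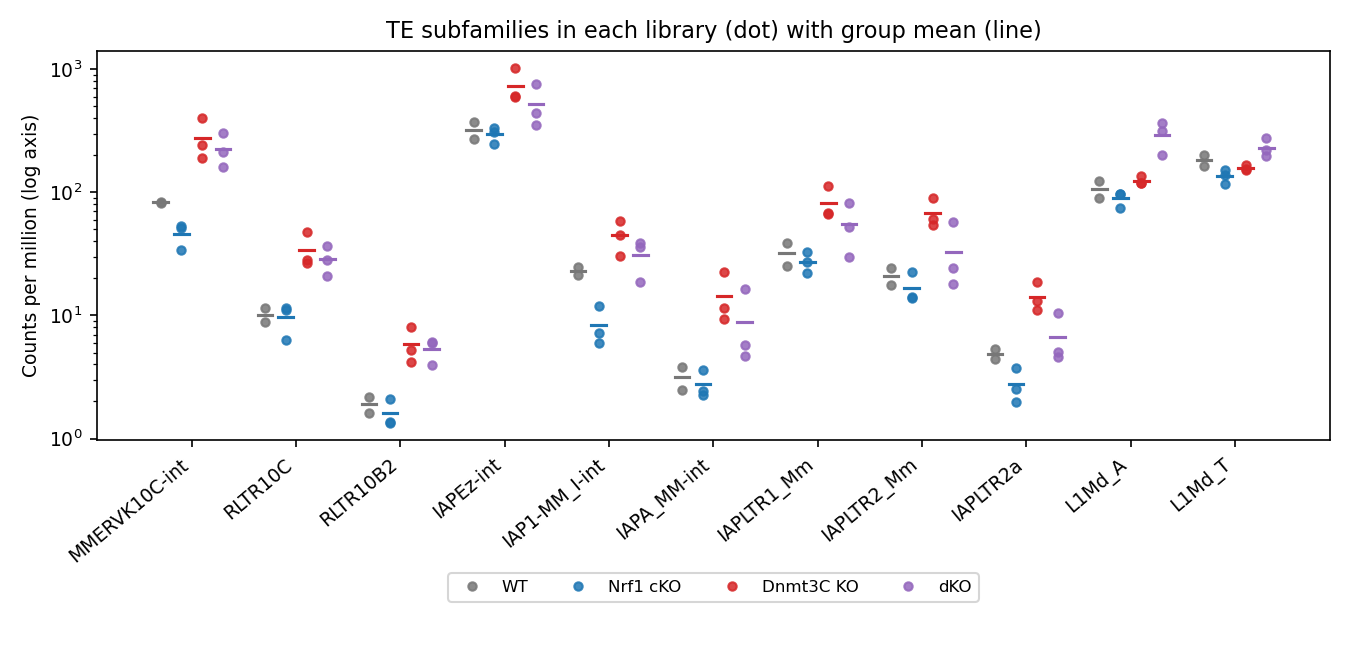
CPM on a log axis of 11 TE subfamilies in each of the 11 libraries; each dot is a library, coloured by genotype, and each line the mean of a genotype. For the plotted ERVK subfamilies the 3 Dnmt3C KO libraries lie above the 3 Nrf1 cKO libraries, as for MMERVK10C-int at 191 to 399 against 34 to 53.2, while L1Md_A and L1Md_T lie close together in these genotypes, with the highest means in dKO.

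Young LINE1 subfamilies differed little. L1Md_A had 119, 119 and 135 CPM in Dnmt3C KO and 75.1, 97.4 and 97.3 in Nrf1 cKO (log2 fold change 0.47 ± 0.13 (SE), unadjusted p = 0.00609, adjusted p = 0.259 with edgeR), with 89.8 and 123 in WT and 200.3, 363 and 313 in dKO. The genotypes did not overlap, but the gap was small, the log2 fold change was 0.06 with summed TPM (limma, adjusted p = 0.958), and all 3 dKO libraries lay above every library of the other genotypes. L1Md_T had a log2 fold change of 0.23 ± 0.13 (SE), also without overlap, and L1Md_Gf, L1Md_F and L1Md_F2 had -0.12 ± 0.19, 0.02 ± 0.18 and 0.04 ± 0.15. With summed TPM, L1Md_T was at -0.057 and L1Md_F2 at -0.22, both of reversed sign, and L1Md_Gf at -0.54 (limma, adjusted p from 0.583 to 0.958). Of 6 young LINE1 subfamilies, 1 was higher by unadjusted p and 0 lower (6.4% and 0.121% of all TE subfamilies), with a median of 0.06 that ran from -0.04 (without Nrf1 cKO replicate 1) to 0.16 (without Dnmt3C KO replicate 2). The ETn and MusD subfamilies (5, median 0.05) and the MERVL subfamilies (3, median -0.05) had 0 higher and 0 lower by the same rule. Both medians changed sign with a library left out. That of ETn and MusD was -0.097 without Dnmt3C KO replicate 1 and -0.094, with 1 lower, without Nrf1 cKO replicate 1, and that of MERVL 0.026 without Dnmt3C KO replicate 2 and 0.11 without Nrf1 cKO replicate 3. RMER12B, an ERVK LTR, was the 1 subfamily with an unadjusted p under 0.05 in the other direction in this fit. It had 9.33, 11 and 10.6 CPM in Dnmt3C KO against 18, 12.1 and 14 in Nrf1 cKO (log2 fold change -0.51 ± 0.18 (SE), unadjusted p = 0.0221, adjusted p = 0.378 with edgeR). Without Nrf1 cKO replicate 1 there were 10 such subfamilies.

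Across all subfamilies, 651 of 828 (78.6%) had a log2 fold change above 0, against 46.7% of genes, with medians of 0.20 and -0.02. That general shift was small beside the differences of the ERVK subfamilies above, and it depended on single libraries: the median was 0.07 without Dnmt3C KO replicate 1 and 0.05 without Nrf1 cKO replicate 1. Among families, ERVK elements had a median of 0.20 (34 of 255 higher, 1 lower at an unadjusted p under 0.05), ERV1 0.13 (5 and 0 of 83), ERVL 0.19 (0 and 0 of 79) and LINE1 0.23 (9 and 0 of 115), beside 6.4% higher and 0.121% lower for all subfamilies. These values turned on single libraries. The ERVK count was 19 higher and its median 0.087 without Dnmt3C KO replicate 1, and 30 higher, 6 lower and 0.08 without Nrf1 cKO replicate 1. The ERV1 median was -0.04 without Dnmt3C KO replicate 1, and that of ERVL -0.01 without Nrf1 cKO replicate 1. The LINE1 count was 2 without Dnmt3C KO replicate 1, 3 without Dnmt3C KO replicate 3 or Nrf1 cKO replicate 1, 5 without Nrf1 cKO replicate 2, and 16 without Dnmt3C KO replicate 2 or Nrf1 cKO replicate 3. TE subfamilies together took 2.78%, 2.2% and 2.56% of the counts in the Dnmt3C KO libraries and 1.6%, 2.21% and 2.42% in the Nrf1 cKO libraries. The mean share was 2.51% ± 0.293 against 2.08% ± 0.426 (SD, n = 3 each), and the groups overlapped (two-sided exact permutation test, p = 0.3, where 3 against 3 libraries cannot go below 0.1).

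The table of TPM for TE copies, which is scaled to the TE total of each library, gives the ERVK signal assigned to each copy. Multi-mapping reads were shared among similar copies in that counting, so copies of a subfamily are not separate observations. It lists 3230 copies of MMERVK10C-int, of which 228 had a mean of 1 TPM or more over the 6 libraries. In 114 of these (50%) all 3 Dnmt3C KO libraries lay above all 3 Nrf1 cKO libraries and in 2 (0.877%) below, beside 4.3% and 3.25% of the 150710 copies of any TE that reached that level. The counts for IAPLTR2_Mm were 85 of 150 copies above (56.7%) and 1 below, and for IAPEz-int 133 of 347 above (38.3%) and 6 below. A copy can reach that level through the genotype where it is high, so these shares describe the copies and do not add a test. The 10 copies of MMERVK10C-int with the most signal held 25.5% of its TPM in Dnmt3C KO. The 10 copies of IAPA_MM-int with the most signal held 85.4%, and 27 of its 126 copies reached 1 TPM. L1Md_A had 5 of 83 copies above and 4 below.

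Many germ cell genes also stood higher in Dnmt3C KO. Of 31 germ cell markers tested, 20 were higher in Dnmt3C KO by unadjusted p and 0 lower (6.27% and 4.5% of all genes), DESeq2 called 11 higher (0.903% of all genes), and the median log2 fold change was 1.21 against -0.02 for all genes. The summed level of these markers was 586 to 932 CPM in Dnmt3C KO, 262 to 433 in Nrf1 cKO, 549.7 to 718 in WT and 302 to 588 in dKO, so the single mutants did not overlap. Dazl, which encodes an RNA-binding protein that germ cells need, had 175, 97.6 and 107 CPM in Dnmt3C KO, 44.5, 21.2 and 24.8 in Nrf1 cKO, with 91.4 and 97.7 in WT (log2 fold change 2.07 ± 0.31 (SE), unadjusted p = 9.21e-05, adjusted p = 0.0528 with edgeR). Taf7l, an X-linked subunit of the transcription factor TFIID, had 62.5, 29.2 and 40.5 against 14.6, 7.59 and 12.6 (log2 fold change 1.93 ± 0.31 (SE), unadjusted p = 0.000158, adjusted p = 0.0701 with edgeR), and Uchl1, a ubiquitin hydrolase of spermatogonia, 139, 65.6 and 79.9 against 41.9, 40.4 and 53.7 (log2 fold change 1.07 ± 0.26 (SE), unadjusted p = 0.00256, adjusted p = 0.188 with edgeR). For Dazl and Taf7l the Nrf1 cKO libraries also lay below both WT libraries. In whole testis, fewer germ cells and less RNA per germ cell cannot be told apart.

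Since the summed markers and the IAP and MMERVK10C subfamilies named above were higher in the same libraries, each fold change was also computed after scaling the libraries to equal germ cell markers, which moved the median of all genes to -1.36. On that scale MMERVK10C-int was still higher, at 1.11 (adjusted p = 0.0086 with edgeR), as were IAPEy-int at 1.35, IAP1-MM_I-int at 0.94, IAPA_MM-int at 0.92 and IAPLTR2a at 0.91, with adjusted p from 0.0112 to 0.0588. The more abundant IAPEz-int was at -0.12, a reversed sign, IAPLTR1_Mm at 0.15 and RLTR10C at 0.35, with adjusted p of 0.771, 0.717 and 0.416. L1Md_A was at -0.91. By unadjusted p, 1 of the 11 MMERVK10C and RLTR10 subfamilies was higher and 3 lower, with a median of -0.59. The counts were 3 higher and 2 lower for the 8 internal IAP subfamilies (median -0.39). They were 1 and 7 for the 16 IAP LTRs (median -0.87). Over all 828 TE subfamilies 6 were higher and 580 lower, with a median of -1.20. MMERVK10C-int was the only subfamily called higher at 0.01 on this scale. The scaling rests on the marker list and treats RNA of somatic cells as if it came from germ cells.

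**Figure D2:**
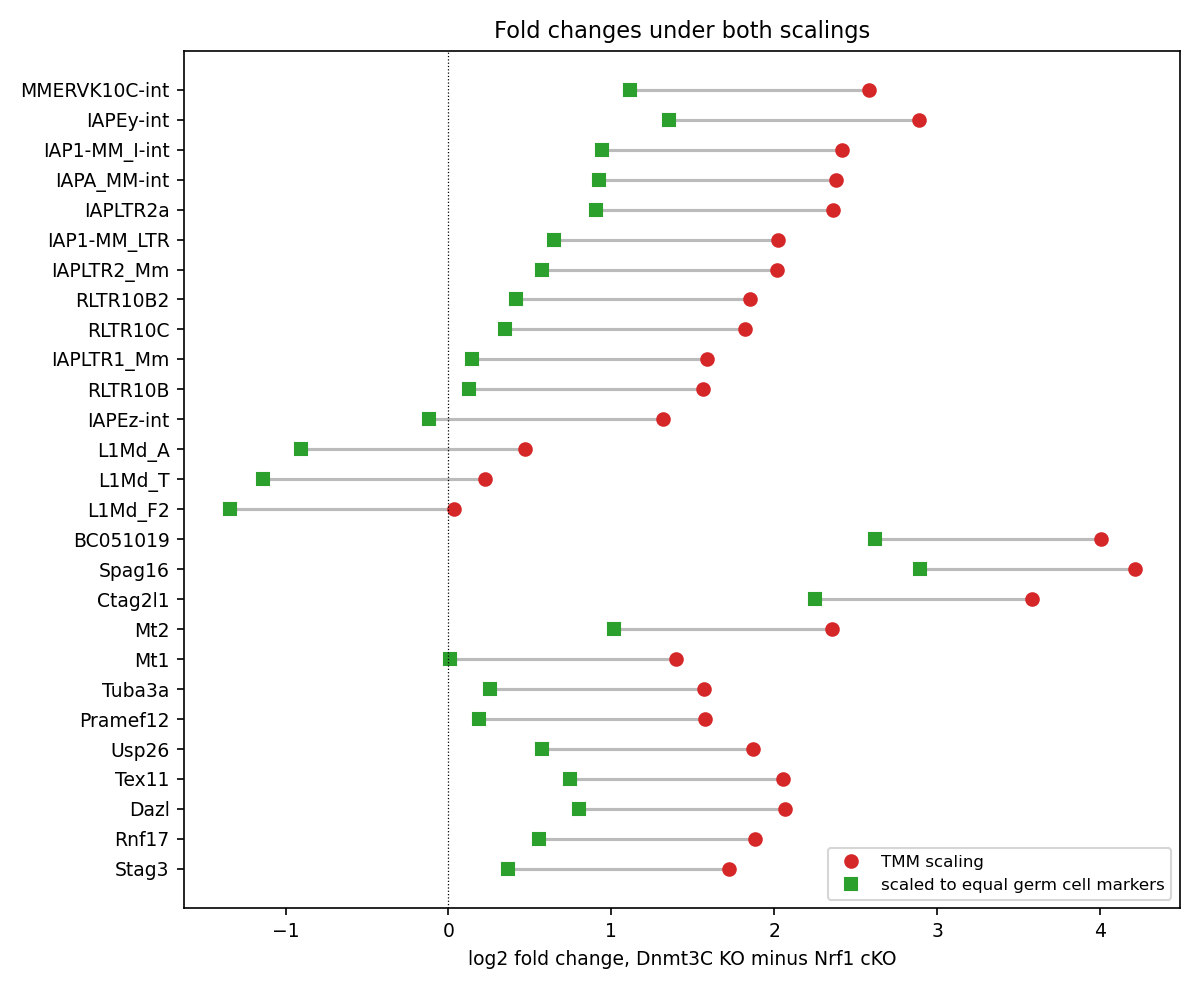
Log2 fold changes (Dnmt3C KO minus Nrf1 cKO, horizontal axis) of 27 named features with TMM scaling (red circles) and scaled to equal germ cell markers (green squares). MMERVK10C-int stays above 0 on both scales, at 2.58 and 1.11, while IAPEz-int moves from 1.32 to -0.12. Dazl, itself one of the markers that set the scale, moves from 2.07 to 0.80.

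The piRNA pathway, in which PIWI proteins and Tudor proteins of the germ granule silence transposons in male germ cells, had 15 of 24 genes higher by unadjusted p and 0 lower (6.27% and 4.5% of all genes), and 4 called higher by DESeq2 (0.903% of all genes). The median was 1.12, and 2.02 with 20 genes higher without Nrf1 cKO replicate 1. Rnf17, a Tudor protein of germ granules, had 41.2, 23 and 25.4 CPM in Dnmt3C KO against 10.2, 7.15 and 6.84 in Nrf1 cKO (log2 fold change 1.88 ± 0.26 (SE), unadjusted p = 4.29e-05, adjusted p = 0.0528 with edgeR). Mael, which acts in piRNA-guided silencing, had 78.3, 42.3 and 52.8 against 28.7, 15.1 and 15.3 (log2 fold change 1.55 ± 0.30 (SE), unadjusted p = 0.000529, adjusted p = 0.109 with edgeR). For these genes the libraries did not overlap, and the WT libraries lay between the genotypes for Rnf17 and within the Dnmt3C KO range for Mael. Tex15 had 107, 62.7 and 63.8 CPM against 37.8, 11.2 and 12.4 (log2 fold change 1.93 ± 0.45, SE), where Nrf1 cKO replicate 1 stood apart from the other Nrf1 cKO libraries.

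Genes of meiotic chromosomes, whose RNA is present before meiosis begins, had 13 of 24 tested genes higher and 0 lower by unadjusted p (6.27% and 4.5% of all genes), a median of 1.37, and 7 called higher by DESeq2 (0.903% of all genes). Stag3, a meiotic cohesin subunit, had 63.8, 30.9 and 35.2 CPM against 15.8, 11.8 and 11.9 (log2 fold change 1.72 ± 0.27 (SE), unadjusted p = 0.000128, adjusted p = 0.0662 with edgeR). Sycp2, a protein of the synaptonemal complex, had 21.2, 9.72 and 16.6 against 4.92, 4.67 and 5.18 (log2 fold change 1.68 ± 0.27 (SE), unadjusted p = 0.000169, adjusted p = 0.0706 with edgeR), and Syce2, of its central element, 53, 39.9 and 44 against 31.7, 31.3 and 25.1 (log2 fold change 0.63 ± 0.14 (SE), unadjusted p = 0.00173, adjusted p = 0.16 with edgeR). None of these overlapped between genotypes. On the scale of equal germ cell markers, the medians of the piRNA and meiotic lists were -0.05 and 0.10, and Fkbp6 and Syce2 had negative values.

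The palindrome that NRF1 binds was searched in RefSeq promoters (build GRCm38.p6, 250 bases before to 50 after each start), as its core GCATGCGC or the same core on the other strand, GCGCATGC, which overlap in the full palindrome GCGCATGCGC. The core was in 3.05% of the promoters of 27025 genes, in 5.42% of the 12814 tested genes with a promoter, in 8.41% of the 892 higher at an unadjusted p under 0.05 and in 3.11% of the 675 lower. Among the 140 called higher by DESeq2 it was in 7 (5%). The full palindrome was in 0.714% of these and in 2.03% of tested genes. The higher share was therefore not seen with the DESeq2 call. Of list members with a promoter, it was in 6 of 19 piRNA and germ granule genes, 1 of 25 germ cell markers, 2 of 21 meiotic genes and 6 of 14 respiratory genes known as NRF1 targets. Of the 10 genes with the smallest p in each direction, 8 and 8 had a promoter in the table, and 0 held the core. Shown here are the 4 genes of the germ cell, piRNA and meiotic lists that hold it and have the smallest p, with the match in capitals, each read 5′ to 3′ along its gene.
Dazl promoter, chr17:50293571-50293870, minus strand: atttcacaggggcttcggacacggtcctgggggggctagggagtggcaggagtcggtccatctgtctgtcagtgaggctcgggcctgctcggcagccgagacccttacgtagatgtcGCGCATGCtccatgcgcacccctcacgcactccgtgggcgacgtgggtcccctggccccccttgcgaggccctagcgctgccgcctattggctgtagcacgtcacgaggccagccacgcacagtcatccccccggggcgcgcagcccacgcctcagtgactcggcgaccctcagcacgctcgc
Fkbp6 promoter, chr5:135349995-135350294, minus strand: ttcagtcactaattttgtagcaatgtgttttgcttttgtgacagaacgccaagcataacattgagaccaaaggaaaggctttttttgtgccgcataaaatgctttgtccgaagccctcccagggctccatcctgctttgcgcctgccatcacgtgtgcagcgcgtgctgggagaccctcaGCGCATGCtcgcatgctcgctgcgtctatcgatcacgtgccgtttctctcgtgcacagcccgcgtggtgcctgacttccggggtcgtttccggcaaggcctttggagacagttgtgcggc
Tex19.1 promoter, chr11:121145893-121146192, plus strand: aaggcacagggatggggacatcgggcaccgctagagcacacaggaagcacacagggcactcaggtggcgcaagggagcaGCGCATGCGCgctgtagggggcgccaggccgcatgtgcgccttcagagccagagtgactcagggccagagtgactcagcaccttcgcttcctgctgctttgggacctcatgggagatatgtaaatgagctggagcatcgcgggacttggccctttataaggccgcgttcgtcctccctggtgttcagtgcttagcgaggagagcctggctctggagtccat
Stk31 promoter, chr6:49395289-49395588, plus strand: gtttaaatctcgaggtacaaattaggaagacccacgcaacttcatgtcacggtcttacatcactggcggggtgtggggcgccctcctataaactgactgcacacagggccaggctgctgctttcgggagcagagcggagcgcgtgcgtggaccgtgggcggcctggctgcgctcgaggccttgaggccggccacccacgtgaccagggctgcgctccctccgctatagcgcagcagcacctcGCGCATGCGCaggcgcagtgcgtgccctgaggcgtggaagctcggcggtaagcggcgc

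In these promoters the core began 133 bases before the start of Dazl and 70 before that of Fkbp6, and the full palindrome began 171 bases before the start of Tex19.1 and 8 before that of Stk31. Fkbp6, a co-chaperone of piRNA loading, had 69.3, 46.6 and 50.5 CPM in Dnmt3C KO against 32.9, 18.8 and 32.8 in Nrf1 cKO (log2 fold change 0.98 ± 0.23 (SE), unadjusted p = 0.00219, adjusted p = 0.175 with edgeR). Tex19.1, a germline gene whose promoter is silenced by methylation in somatic cells, had 51.8, 32 and 39.1 against 28.7, 12.5 and 10.9 (log2 fold change 1.23 ± 0.35 (SE), unadjusted p = 0.00601, adjusted p = 0.258 with edgeR), and Stk31, a Tudor protein, 42.9, 20.6 and 27.5 against 16.5, 3.75 and 4.17 (log2 fold change 1.89 ± 0.54 (SE), unadjusted p = 0.00661, adjusted p = 0.259 with edgeR). In all 3 the groups did not overlap, and Nrf1 cKO replicate 1 was the highest of its group for Tex19.1 and Stk31. The match is a description of the letters; binding was not measured in these libraries.

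**Figure D3:**
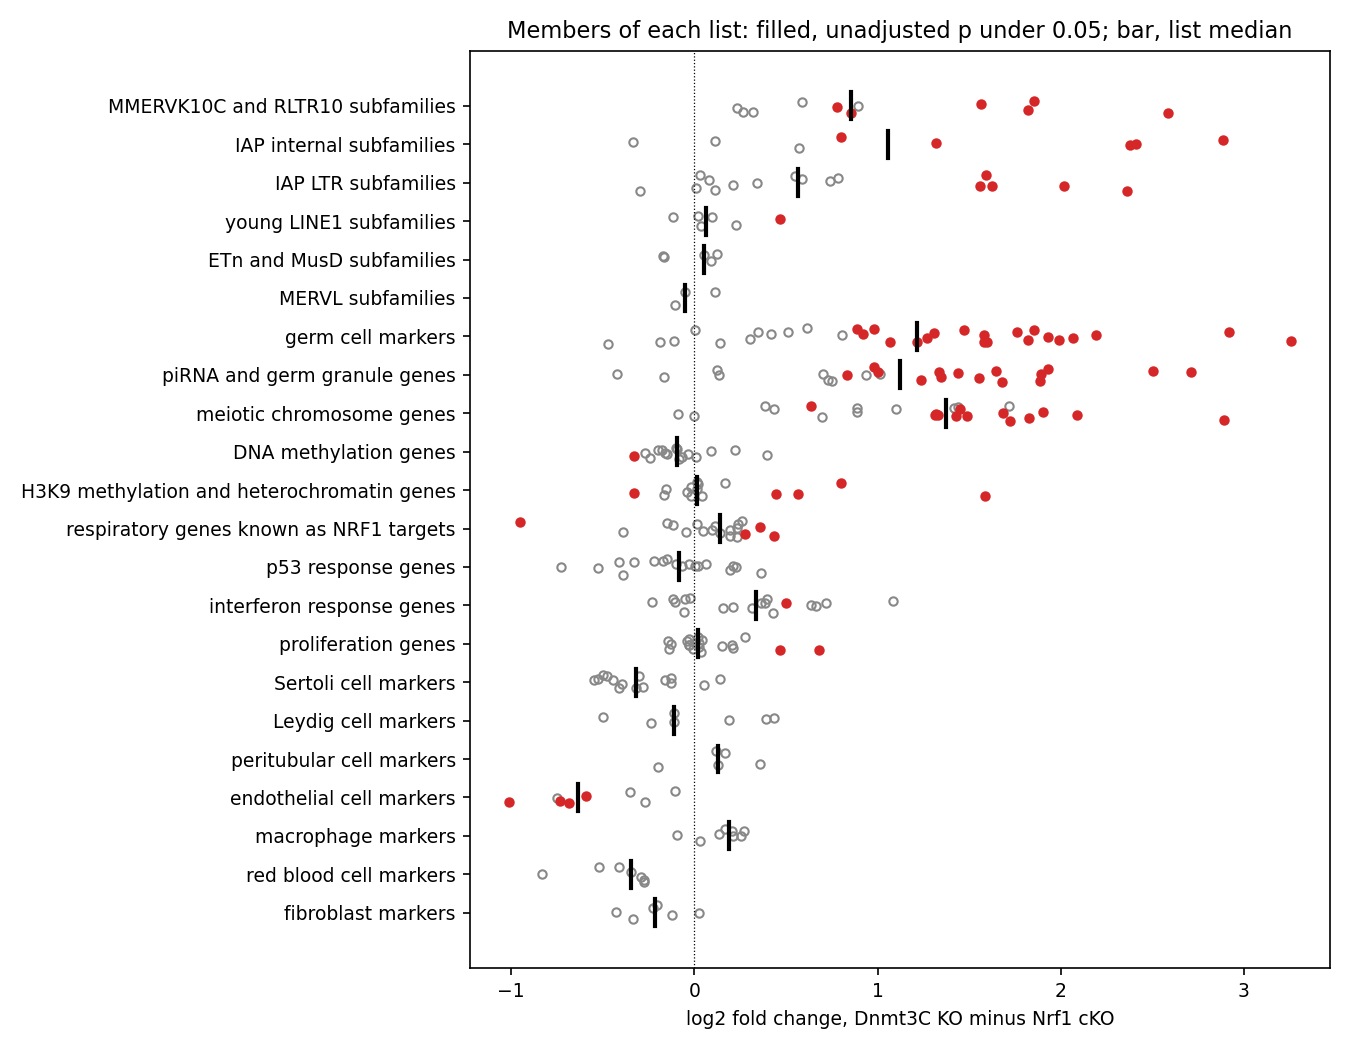
Log2 fold changes (Dnmt3C KO minus Nrf1 cKO, horizontal axis) of the tested members of 22 lists; each dot is a gene or TE subfamily, filled where the unadjusted edgeR p is under 0.05, and each bar is the median of its list. The germ cell, piRNA and meiotic lists have medians of 1.21, 1.12 and 1.37, and the endothelial list -0.64.

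The 10 genes with the smallest p among those higher in Dnmt3C KO fall into several kinds. Tuba3a, an alpha-tubulin of the testis, had 137, 123 and 138 CPM in Dnmt3C KO, 52.2, 46.4 and 35.4 in Nrf1 cKO, with 137 and 107 in WT (log2 fold change 1.57 ± 0.15 (SE), unadjusted p = 2.54e-06, adjusted p = 0.0224 with edgeR). Pramef12, of the PRAME family of germline genes, had 35.8, 25.8 and 31.8 CPM in Dnmt3C KO against 9.26, 11.3 and 10.8 in Nrf1 cKO and 30.3 and 22.4 in WT (log2 fold change 1.58 ± 0.16 (SE), unadjusted p = 4.15e-06, adjusted p = 0.0224 with edgeR). For both, Dnmt3C KO was close to WT and Nrf1 cKO below both. Tuba3a has a near-identical paralog, Tuba3b, and reads of the pair may be split between them. Nlrp4c, of a family of NLRP genes used in the germline, had 40.4, 26.7 and 33 CPM against 11.2, 5.16 and 6.64 (log2 fold change 2.12 ± 0.28 (SE), unadjusted p = 3.54e-05, adjusted p = 0.0522 with edgeR).

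The metallothioneins Mt2 and Mt1, which bind zinc and copper, were also among these genes. Mt2 had 115, 59.1 and 83.3 CPM in Dnmt3C KO, against 19.7, 13.8 and 16.6 in Nrf1 cKO, 41.8 and 36.8 in WT and 53.1, 25.6 and 16 in dKO (log2 fold change 2.36 ± 0.24 (SE), unadjusted p = 4.20e-06, adjusted p = 0.0224 with edgeR). Mt1 had 85.9, 58.1 and 71.5 CPM in Dnmt3C KO, against 25.8, 28.9 and 27.2 in Nrf1 cKO, 38.7 and 43.7 in WT and 54.2, 29.5 and 22.9 in dKO (log2 fold change 1.39 ± 0.15 (SE), unadjusted p = 6.16e-06, adjusted p = 0.0224 with edgeR). Every Dnmt3C KO library lay above every WT and every Nrf1 cKO library, and the Nrf1 cKO libraries lay below those of WT. On the scale of equal germ cell markers Mt2 was at 1.02 (adjusted p = 0.0154 with edgeR) and Mt1 at 0.01.

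BC051019 and Spag16, which encodes a protein of the sperm flagellum, stood under 1 CPM in every WT and Nrf1 cKO library. BC051019 (chr7:109712181-109723850, minus strand) had 4.57, 2.37 and 3.25 CPM in Dnmt3C KO, against 0.153, 0.270 and 0.193 in Nrf1 cKO, 0.162 and 0.904 in WT and 2.95, 2.55 and 1.47 in dKO (log2 fold change 4.01 ± 0.41 (SE), unadjusted p = 4.63e-06, adjusted p = 0.0224 with edgeR). Spag16 (chr1:69826970-70725132, plus strand) had 3.85, 2.13 and 3.73 CPM in Dnmt3C KO, against 0.153, 0.108 and 0.270 in Nrf1 cKO, 0.270 and 0.603 in WT and 3.37, 2.09 and 0.841 in dKO (log2 fold change 4.21 ± 0.45 (SE), unadjusted p = 6.58e-06, adjusted p = 0.0224 with edgeR). In both genes the Dnmt3C KO and dKO libraries lay above those of the other genotypes, and dKO replicate 3 came near WT for Spag16. On the scale of equal germ cell markers both were called higher in Dnmt3C KO, at 2.62 and 2.90 (adjusted p = 0.000815 and 0.000636 with edgeR).

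Chosen after their values were seen, 6 genes with an unadjusted p under 0.05 had 0 counts in all 3 Nrf1 cKO libraries: Gm29128, Gm40518, Gm48619, Mup3, Cyp4a12b and Clec2g. Gm29128 (chr1:31136026-31150105) had 45, 30 and 30 counts in Dnmt3C KO, or 1.28, 0.772 and 0.957 CPM, beside 0 and 0.0301 in WT, at least 32.5-fold higher than the 3 counts over the group that a count of 0 allows. Gm40518 (chr9:48132504-48158965) had 45, 32 and 22 counts, at least 30.3-fold higher by the same bound, and 0 and 0.482 CPM in WT. The other 4 genes had bounds of 16.7-fold to 26-fold. Such a gene passes the filter on low counts only through the libraries where it is present, so these values describe the genes and add no test. The levels are low in every library, and the bounds cover counting error only.

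**Figure D4:**
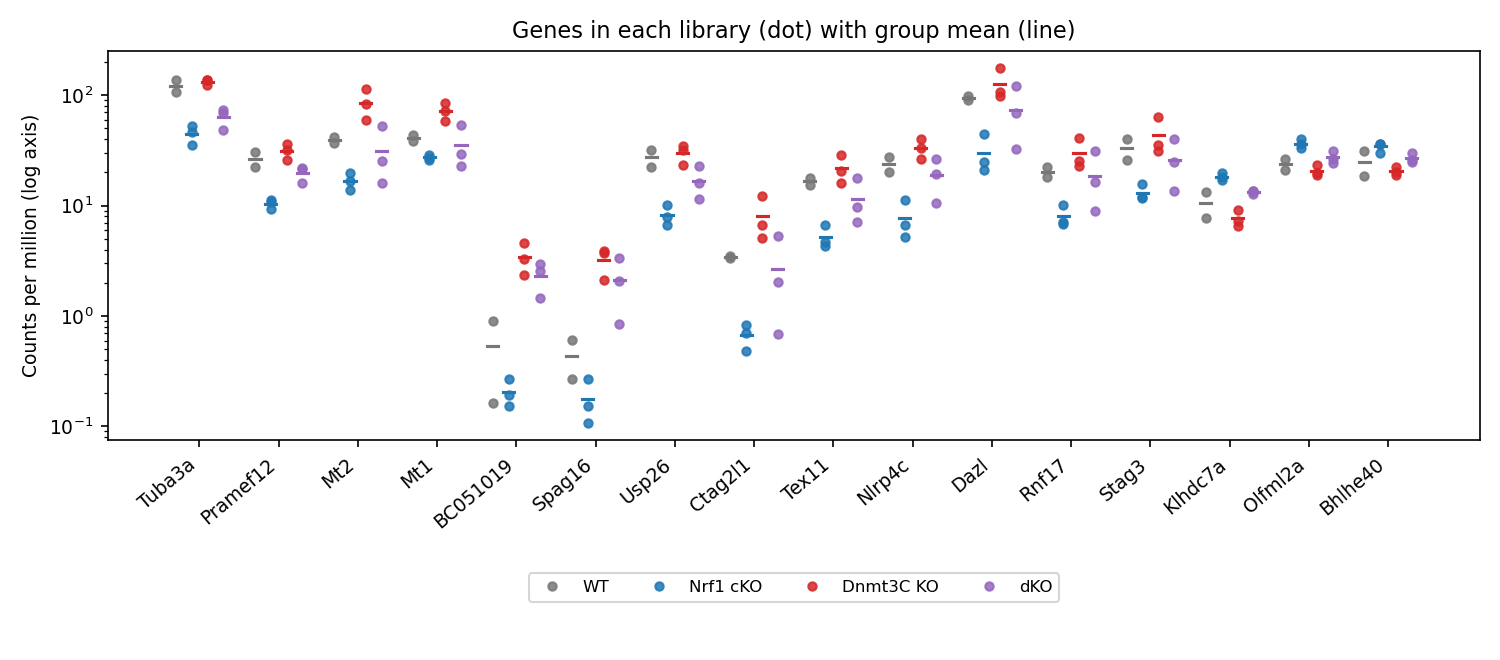
CPM on a log axis of 16 genes in each of the 11 libraries; each dot is a library, coloured by genotype, and each line the mean of a genotype. From Tuba3a to Stag3 the Dnmt3C KO libraries lie above those of Nrf1 cKO, with BC051019 and Spag16 at 2.13 to 4.57 against 0.108 to 0.27, and Klhdc7a, Olfml2a and Bhlhe40 lie below.

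The remaining 3 of the 10 genes are X-linked. Usp26, a deubiquitinase of the testis, had 34.9, 23.5 and 32 CPM in Dnmt3C KO, 10.2, 6.67 and 7.84 in Nrf1 cKO, with 32.2 and 22.6 in WT (log2 fold change 1.87 ± 0.21 (SE), unadjusted p = 8.70e-06, adjusted p = 0.0224 with edgeR). Ctag2l1, of the cancer/testis antigens, had 12.3, 5.12 and 6.63 CPM in Dnmt3C KO against 0.825, 0.486 and 0.695 in Nrf1 cKO and 3.38 and 3.46 in WT (log2 fold change 3.59 ± 0.40 (SE), unadjusted p = 9.93e-06, adjusted p = 0.0228 with edgeR), and Tex11, which acts in meiotic recombination, 28.7, 16 and 20.7 CPM in Dnmt3C KO against 6.72, 4.32 and 4.67 in Nrf1 cKO and 17.8 and 15.3 in WT (log2 fold change 2.05 ± 0.26 (SE), unadjusted p = 2.46e-05, adjusted p = 0.039 with edgeR). The Nrf1 cKO libraries lay below WT for all 3, and the Dnmt3C KO libraries of Ctag2l1 above it. Chromosomes were compared after these values were seen. Of 807 tested X-linked genes, 124 (15.4%) were higher at an unadjusted p under 0.05 and 17 (2.11%) lower, and DESeq2 called 47 higher and 0 lower. Over all genes the shares were 6.27% higher and 4.5% lower, and with DESeq2 0.903% and 0.0908%. Autosomes ranged from 4.63% to 8.31% higher and from 2.76% to 6.08% lower. The median log2 fold change of X-linked genes was 0.03, close to the -0.02 of all genes.

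X-linked genes named after their values were seen include members of multicopy germline families. Nxf2, an RNA export factor of germ cells, had 94.5, 53.8 and 51.1 CPM against 20.9, 10.2 and 13.6 (log2 fold change 2.16 ± 0.31 (SE), unadjusted p = 6.30e-05, adjusted p = 0.0528 with edgeR), and Mageb4, of the MAGE family, 48.1, 29.6 and 35.2 against 15.4, 9.23 and 8.92 (log2 fold change 1.75 ± 0.25 (SE), unadjusted p = 7.01e-05, adjusted p = 0.0528 with edgeR). Fthl17f, of the ferritin-like genes of germ cells, had 5.91, 2.21 and 2.49 against 0.214, 0.540 and 0.386 (log2 fold change 3.20 ± 0.52 (SE), unadjusted p = 0.00016, adjusted p = 0.0701 with edgeR). Members of the Fthl17, Xlr and MAGE families share sequence, and reads may be split between copies. Of 15 tested Y-linked genes, 5 were higher and 0 lower by unadjusted p (6.27% and 4.5% of all genes), among them Uba1y, a ubiquitin-activating enzyme, with 65.1, 52.8 and 53.5 CPM against 38.8, 28.8 and 27.1 (log2 fold change 0.86 ± 0.16 (SE), unadjusted p = 0.00043, adjusted p = 0.0976 with edgeR), and Usp9y, a deubiquitinase, with 7.22, 4.14 and 6.44 against 2.96, 1.73 and 0.927 (log2 fold change 1.65 ± 0.41 (SE), unadjusted p = 0.00302, adjusted p = 0.191 with edgeR). On the scale of equal germ cell markers Ctag2l1 and Fthl17f were called higher, at 2.25 and 1.70, while Usp26, Tex11, Nxf2 and Mageb4 were at 0.58, 0.74, 0.88 and 0.46 and Uba1y at -0.45, all 5 without a call (edgeR adjusted p from 0.0366 to 0.275).

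**Figure D5:**
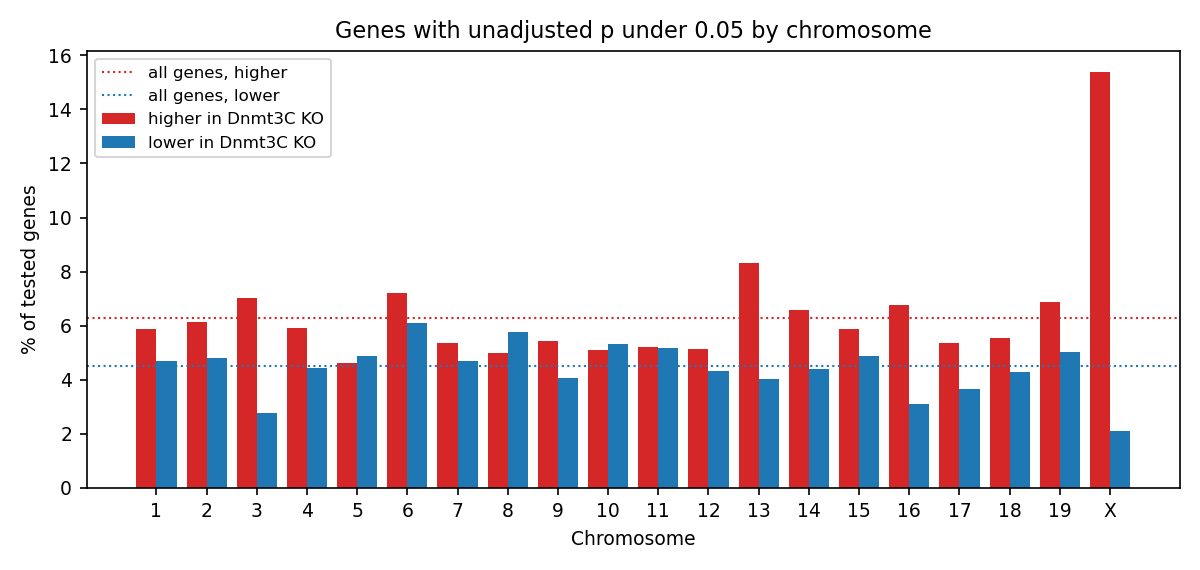
Percent of the tested genes of each chromosome with an unadjusted edgeR p under 0.05, higher (red bars) or lower (blue bars) in Dnmt3C KO; dotted lines are the percent over all genes, 6.27 and 4.5. The X chromosome stands at 15.4% higher and 2.11% lower, and every autosome at 4.63% to 8.31% higher.

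Genes lower in Dnmt3C KO than in Nrf1 cKO differed by smaller amounts. Klhdc7a, a kelch-repeat protein, had 7.28, 9.18 and 6.57 CPM in Dnmt3C KO, 17, 19.6 and 18 in Nrf1 cKO, with 13.4 and 7.77 in WT (log2 fold change -1.24 ± 0.17 (SE), unadjusted p = 5.24e-05, adjusted p = 0.0528 with edgeR). Olfml2a, an extracellular olfactomedin-like protein, had 19.096, 23.3 and 19.6 CPM in Dnmt3C KO against 36.3, 33.1 and 40.05 in Nrf1 cKO and 26.6 and 21.2 in WT (log2 fold change -0.82 ± 0.13 (SE), unadjusted p = 0.000142, adjusted p = 0.068 with edgeR), and Bhlhe40, a transcriptional repressor, 18.9, 22.2 and 20.2 CPM in Dnmt3C KO against 36.3, 30.2 and 36.5 in Nrf1 cKO and 31.1 and 18.7 in WT (log2 fold change -0.75 ± 0.13 (SE), unadjusted p = 0.000243, adjusted p = 0.0776 with edgeR). The genotypes did not overlap, and a WT library lay near the Dnmt3C KO range in each. The next 7 by p were the pseudogene Gm45351, Sox18, a transcription factor of endothelium, the adhesion gene Cadm3, the membrane-type matrix metalloproteinase gene Mmp15, the genes Slc25a23 and Aldh1b1 of mitochondrial proteins, and Crip2, a LIM protein. Their log2 fold changes were -1.24, -0.68, -0.78, -0.73, -0.49, -0.47 and -0.59, with edgeR adjusted p from 0.116 to 0.144, and DESeq2 called all 7.

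Endothelial markers stood lower in Dnmt3C KO, with 4 of 8 lower at an unadjusted p under 0.05 and 0 higher (4.5% and 6.27% of all genes), and a median of -0.64. The count was 2 of 8 without Dnmt3C KO replicate 2 and 6 of 8 without Nrf1 cKO replicate 3. Tie1, a receptor of endothelium, had 8.19, 5.27 and 8.10 CPM in Dnmt3C KO against 19.3, 15.3 and 8.77 in Nrf1 cKO (log2 fold change -1.01 ± 0.30 (SE), unadjusted p = 0.00812, adjusted p = 0.275 with edgeR), and Pecam1, an adhesion protein of endothelium, 24.2, 22 and 29 against 54.9, 42.7 and 27 (log2 fold change -0.73 ± 0.23 (SE), unadjusted p = 0.0119, adjusted p = 0.312 with edgeR). Nrf1 cKO replicate 3 lay just above the Dnmt3C KO range for Tie1 and within it for Pecam1, and replicates 1 and 2 stood highest. Cdh5, the cadherin of endothelium, overlapped, at 214, 187 and 223 against 299, 298 and 156 (log2 fold change -0.27 ± 0.23, SE). Named after their values were seen, Ptprb, Adgrf5 and Mmrn2, also genes of endothelium, had log2 fold changes of -0.94, -0.97 and -1.51 without overlap. DESeq2 called these 3 lower, but 0 of the 8 listed endothelial markers.

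Other somatic markers gave values that turned on single libraries. The 15 Sertoli cell markers had 0 in either direction by unadjusted p (6.27% of all genes were higher and 4.5% lower) and a median of -0.32, and their summed level was 5748 to 7607 CPM in Dnmt3C KO and 6421 to 10289.7 in Nrf1 cKO. Without Nrf1 cKO replicate 3, the library with the highest sum, the median was 0.05 with 2 higher. Without Dnmt3C KO replicate 2 it was -0.44 with 4 lower. Fshr, the receptor of follicle-stimulating hormone, and Dhh, a hedgehog ligand of Sertoli cells, had log2 fold changes of -0.41 ± 0.18 and -0.55 ± 0.25 (SE). Leydig, peritubular, macrophage, fibroblast, red blood cell and epididymis markers also had 0 higher and 0 lower, with medians of -0.11, 0.13, 0.19, -0.21, -0.35 and -0.79. Without Nrf1 cKO replicate 3, 5 of 6 fibroblast and 3 of 7 Leydig markers were lower by unadjusted p, and the epididymis median was -0.03. Without Nrf1 cKO replicate 2, 4 of 7 red blood cell markers were higher and their median was 0.88. Medians of the Leydig, peritubular, fibroblast and skeletal muscle lists also changed sign with a library left out. Of 5 skeletal muscle markers 1 was lower, and of 5 fat cell markers only 1 was tested, with a log2 fold change of -0.05. The part of cell composition in the results above was not tested.

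Genes of DNA and H3K9 methylation were also counted. Of 16 DNA methylation genes, 0 were higher and 1 lower by unadjusted p (6.27% and 4.5% of all genes), with a median of -0.10; the latter was Dnmt3a, a de novo methyltransferase, with 181, 193 and 176 CPM in Dnmt3C KO against 246, 195 and 251 in Nrf1 cKO (log2 fold change -0.33 ± 0.13 (SE), unadjusted p = 0.0308, adjusted p = 0.412 with edgeR). Of 15 H3K9 methylation and heterochromatin genes, 4 were higher and 1 lower by the same rule, with a median of 0.02 that ran from -0.038 (without Nrf1 cKO replicate 2) to 0.08 (without Nrf1 cKO replicate 1). Hells, a chromatin remodeller that DNA methylation requires, had 119, 99.8 and 109.5 CPM against 70.4, 54.7 and 63.8 (log2 fold change 0.80 ± 0.13 (SE), unadjusted p = 0.000139, adjusted p = 0.068 with edgeR), with 104 and 133 in WT. The Nrf1 cKO libraries of Hells lay below all libraries of the other genotypes. Setdb2, a putative H3K9 methyltransferase, had 14.8, 11.3 and 14.2 against 8.80, 8.29 and 10.2 (log2 fold change 0.57 ± 0.18 (SE), unadjusted p = 0.0104, adjusted p = 0.301 with edgeR). Both turned negative on the scale of equal germ cell markers, which moved the median of all genes to -1.36.

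Respiratory genes known as NRF1 targets were measured in whole testis, where the somatic cells keep NRF1. Of 19, 3 stood higher and 1 lower by unadjusted p (6.27% and 4.5% of all genes), with a median of 0.14. The higher count was 1 without Dnmt3C KO replicate 1 or 3. It was 5 without Nrf1 cKO replicate 2. Cox6c, a subunit of cytochrome c oxidase, had 284, 209.8 and 221 CPM in Dnmt3C KO against 165, 197 and 166 in Nrf1 cKO (log2 fold change 0.44 ± 0.15 (SE), unadjusted p = 0.0156, adjusted p = 0.339 with edgeR). Alas1, the enzyme that begins haem synthesis, had 60.7, 50.4 and 63.8 against 144, 137 and 56.7 (log2 fold change -0.95 ± 0.30 (SE), unadjusted p = 0.0113, adjusted p = 0.309 with edgeR); Nrf1 cKO replicate 3 lay within the Dnmt3C KO range. Proliferation genes had 2 of 20 higher, the cyclin gene Ccnb1 (log2 fold change 0.68 ± 0.13 (SE), unadjusted p = 0.000529, adjusted p = 0.109 with edgeR) and the checkpoint kinase gene Bub1 (log2 fold change 0.47 ± 0.12 (SE), unadjusted p = 0.00337, adjusted p = 0.203 with edgeR), 0 lower and a median of 0.02 that ran from -0.086 to 0.15 with a library left out. Interferon response genes had 1 of 18 higher and 0 lower, a share near that of all genes. Their median was 0.34, but -0.045 without Dnmt3C KO replicate 3, 0.11 without Nrf1 cKO replicate 1 and 0.58 without Nrf1 cKO replicate 2. The p53 response genes had 0 of 18 in either direction (median -0.08). With a library left out, 0 or 1 were higher and 0 to 2 lower (2 without Nrf1 cKO replicate 3).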

How the data were processed

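Poly-A RNA of whole testes was sequenced by the authors with a stranded kit. Per the labels and the methods, reads were aligned to GRCm38 (GENCODE M25) with STAR 2.7.3a and counted on genes and TE subfamilies with TEtranscripts, which shares multi-mapping reads among copies. The deposited values are raw counts per library. The same tables hold the authors' DESeq2 (1.44.0) comparison (a mean and test statistics, each a score here, p-values, raw and adjusted, and the log2 fold change), which was not used. A deposited table gives TPM of TE copies, which the authors scaled to all TE reads of a library.

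The counts of the 6 libraries were filtered with filterByExpr, scaled by TMM and tested for Dnmt3C KO minus Nrf1 cKO with the quasi-likelihood F test of edgeR 4.0.16 (R 4.3.3). Genes and TE subfamilies were adjusted in 1 family (Benjamini-Hochberg, threshold 0.01). The SE is the size of a log2 fold change over the root of its F statistic. DESeq2 1.42.0, limma 3.58.1 on log2(TPM + 1) and log2(TPM + 0.1), no filter, other scalings, a replicate block, all 4 genotypes in 1 fit and leave-one-out were alternatives. The tests were tested on simulated data. Coordinates are from GENCODE M21 (GRCm38), without a match for 35 tested genes. Named features are Nrf1, Dnmt3c, Ehmt1, Ehmt2, TE subfamilies of the study, the 10 genes and 10 TE subfamilies with the smallest p in each direction, and of each list the members with the smallest p or highest mean. The text gives a part of these singly, chosen with their values in view. Members and lists were chosen with earlier results of these data known.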

Additional observations from a re-analysis of the deposited data

How the results depend on the processing

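The counts of genes higher, genes lower and TE subfamilies higher, all at 0, depended on the test and on the filter, and the cause was not tested. The count of TE subfamilies lower stayed at 0 in all settings but the scaling to germ cell markers. With an adjusted p under 0.05, 9 genes and 4 TE subfamilies were higher. The DESeq2 Wald test gave 179 genes higher, 18 lower and 15 TE subfamilies higher. Without the filter on low counts there were 46, 1 and 10. All 4 genotypes in 1 fit gave 2 genes and 1 TE subfamily higher. Scaled to equal germ cell markers, 37 genes and 1 TE subfamily were higher, and 12492 genes and 290 TE subfamilies lower, since that scaling moves nearly all features down. With a library left out, the count of genes higher ranged from 0 to 16 (16 without Nrf1 cKO replicate 1), and the other counts stayed at 0. At an unadjusted p under 0.05 these fits gave 908 to 1441 genes higher, 397 (without Dnmt3C KO replicate 3) to 1293 (without Nrf1 cKO replicate 3) genes lower, and 28 (without Dnmt3C KO replicate 1) to 93 (without Nrf1 cKO replicate 3) TE subfamilies higher, with 0 to 10 lower (10 without Nrf1 cKO replicate 1). The TE share of counts differed by 0.439 percentage points, and by 0.2 to 0.609 with a library left out. DESeq2 size factors and library sizes of genes alone left the calls at 0, and by unadjusted p gave 1231 and 1279 genes higher, 922 and 853 lower, 52 and 54 TE subfamilies higher and 2 and 1 lower. With summed TPM, 0 TE subfamilies were called either way, and by unadjusted p 37 stood higher and 40 lower, on values scaled to the TE total.

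The replicate number as a block gave 3 genes higher and 0 TE subfamilies. Libraries with the same replicate number in their titles did not deviate together, with correlations of -0.19, 0.06 and -0.15. Dnmt3C KO replicate 3 has a different number in the authors' column names, so that pair is not same-numbered there. The study used littermate controls where possible, and these correlations cannot show whether libraries were paired.

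Of the 80 features named, 76 kept their sign in every leave-one-out fit. The others crossed 0: Ehmt2 ran from -0.015 (without Nrf1 cKO replicate 1) to 0.078, L1Md_Gf from -0.28 to 0.029 (without Dnmt3C KO replicate 2), L1Md_F from -0.13 to 0.14 and L1Md_F2 from -0.078 to 0.13, the latter pair negative without Nrf1 cKO replicate 1 or Dnmt3C KO replicate 3. Summed TPM put L1Md_A at 0.06, L1Md_Gf at -0.54, L1Md_T at -0.057 and L1Md_F2 at -0.22 with a pseudocount of 1. Scaled to equal germ cell markers, 17 changed sign: Ehmt2 -1.32, IAPEz-int -0.12, L1Md_A -0.91, L1Md_T -1.14, L1Md_F -1.35, L1Md_F2 -1.34, RLTR25B -0.24, RLTR27 -0.14, Uchl1 -0.35, Fkbp6 -0.33, Syce2 -0.72, Hells -0.52, Setdb2 -0.79, Cox6c -0.95, Ccnb1 -0.63, Bub1 -0.83 and Uba1y -0.45. That scaling moved the median of all genes to -1.36, so small positive values turn negative by the shift alone. Uchl1 is also one of the markers that set the scale. Depth limits the genes under about 1 CPM, where a library holds few counts.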

Other observations

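Chosen after its values were seen, RLTR45-int, an internal ERVK sequence, stood at 3.91, 23.8 and 22.4 CPM in the Dnmt3C KO libraries, 1.89, 3.70 and 3.55 in Nrf1 cKO, 5.50, 29.4 and 3.03 in dKO and 4.0 and 4.67 in WT. Dnmt3C KO replicates 2 and 3 and dKO replicate 2 were high, and Dnmt3C KO replicate 1, the highest of the 3 for MMERVK10C-int and IAPLTR2_Mm, was not. The log2 fold change between Dnmt3C KO and Nrf1 cKO was 2.45 ± 0.59 (SE) and ranged from 2.10 to 2.92 with a library left out. In the table of TE copies 3 of 1317 copies of this subfamily had the highest TPM in those libraries. The copy at chr2:156392452-156392617 had 0, 799.7 and 459 TPM in the Dnmt3C KO libraries and 2.41, 2.96 and 3.89 in Nrf1 cKO. The copy at chr2:156392795-156392960 had 0, 270.4 and 216 TPM against 0, 0 and 1.95, and the copy at chr6:117716685-117716850 had 3.83, 140.3 and 194 against 14.4, 0 and 5.84. Coordinates are those of the table (GRCm38). The cause of the split among the Dnmt3C KO libraries was not tested.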
